A study of Homo sapiens with 2 samples.

Results

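The regions described here are 847 JUNB peaks found in both libraries of the study whose summit lay within 1 kb of the start or end of a protein-coding gene. They were chosen from the peak list of untreated cells: a peak on chromosomes 1 to 22 or X qualified if any etoposide peak overlapped it, by 1 bp or more, and if its own summit met the 1 kb limit. They made up 5.10% of the 16610 untreated peaks with an etoposide counterpart (95% Wilson interval 4.78% to 5.44%), out of 60081 peaks in both lists together. Each was paired with the etoposide peak it overlapped most, which gave 839 distinct etoposide peaks, because 8 pairs of neighbouring untreated peaks had 1 counterpart between them. The cells were IMR-90, human lung fibroblasts, and the samples were 1 untreated library (Ctrl) and 1 library of etoposide-treated cells (ETO). The labels give no dose or duration of etoposide. JUNB was mapped by CUT&RUN, in which an antibody against the protein tethers a nuclease that cuts out the DNA beneath it for sequencing. With 1 library per condition no difference between conditions has a replicate check, and all intervals cover counting error only. A peak listed for 1 library may have missed the calling threshold in the other.

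JUNB is one of the JUN proteins, which pair with each other or with FOS and ATF proteins to form AP-1. This dimer reads short palindromes such as TGANTCA through its basic leucine zipper. AP-1 is best known for binding at enhancers far from genes, and promoters make up a small part of its sites. Etoposide traps topoisomerase II on DNA and leaves double-strand breaks, to which fibroblasts respond with p53 activation, arrest and, over days, senescence with secretion of cytokines and proteases. A peak at a gene boundary tells where the antibody signal lay and does not measure RNA, so the labelled fibroblast identity could not be checked by expression. Of 18 fibroblast markers 1, VIM, had a shared peak at a boundary, and of 18 markers of other cell types none did, where 4.75% of all protein-coding genes had one, so these counts do not bear on identity.

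Reference sequences are shown for promoters from the comparison of motifs given further on, first with and then without TGANTCA. They belong to the tallest shared peaks, by the lower of the 2 libraries, whose untreated summit fell in the 250 bases before a gene start. Only promoters whose listed start was also the outer gene boundary were used, a limit set after the data were seen. It left out BBC3, with the motif, and RIN1, without it, whose peaks were taller than most shown here of their kind. The sequences are the RefSeq bases of GRCh38.p14, written 5′ to 3′ on the gene's strand and ending at the base before the annotated start. TGANTCA is in capitals, and bases are counted from 1 at the 5′ end. CPA4 encodes a secreted carboxypeptidase (chr7:130292911-130293160, plus strand), LMNTD1 a protein with a lamin tail domain (chr12:25648579-25648828, minus strand), PAMR1 a secreted protein with a peptidase-like domain (chr11:35530301-35530550, minus strand) and NIBAN2 a cytoplasmic protein linked to cell survival (chr9:127579032-127579281, minus strand).
CPA4: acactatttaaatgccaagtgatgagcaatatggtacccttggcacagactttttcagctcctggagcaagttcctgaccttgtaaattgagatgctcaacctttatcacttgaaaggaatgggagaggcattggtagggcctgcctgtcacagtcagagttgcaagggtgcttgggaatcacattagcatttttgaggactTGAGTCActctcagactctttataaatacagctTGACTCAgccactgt
LMNTD1: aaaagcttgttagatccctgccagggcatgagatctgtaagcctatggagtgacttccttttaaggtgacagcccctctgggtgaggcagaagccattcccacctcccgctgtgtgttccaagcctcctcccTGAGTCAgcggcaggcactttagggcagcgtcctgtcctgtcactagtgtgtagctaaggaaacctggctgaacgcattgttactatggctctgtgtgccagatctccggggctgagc
PAMR1: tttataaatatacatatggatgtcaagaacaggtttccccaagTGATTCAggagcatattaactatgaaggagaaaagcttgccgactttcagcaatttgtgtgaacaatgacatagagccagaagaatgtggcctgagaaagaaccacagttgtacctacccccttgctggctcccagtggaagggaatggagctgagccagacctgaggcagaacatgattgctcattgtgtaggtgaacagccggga
NIBAN2: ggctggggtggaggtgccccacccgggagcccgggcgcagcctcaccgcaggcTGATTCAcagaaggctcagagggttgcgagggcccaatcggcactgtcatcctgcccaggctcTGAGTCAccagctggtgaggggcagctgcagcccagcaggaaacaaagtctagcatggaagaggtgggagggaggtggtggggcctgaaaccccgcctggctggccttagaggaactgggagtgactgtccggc
The untreated summit lay at base 26 in CPA4, 70 in LMNTD1, 30 in PAMR1 and 244 in NIBAN2. The motifs began at bases 203 and 236 in CPA4, outside both listed peaks, at base 133 in LMNTD1, inside the untreated peak, at base 44 in PAMR1, inside both peaks, and at bases 54 and 117 in NIBAN2, inside the untreated peak.

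The tallest without the motif in the whole 300-base window of the table were at FASTKD2, which encodes a mitochondrial RNA-binding protein (chr2:206765356-206765605, plus strand), AKR1C1, an aldo-keto reductase that inactivates progesterone (chr10:4963165-4963414, plus strand), KRTAP2-3, a keratin-associated protein of hair (chr17:41060115-41060364, minus strand), and ZSWIM2, a zinc finger protein with ubiquitin ligase activity (chr2:186849171-186849420, minus strand). Their untreated summits lay at bases 86, 6, 109 and 117.
FASTKD2: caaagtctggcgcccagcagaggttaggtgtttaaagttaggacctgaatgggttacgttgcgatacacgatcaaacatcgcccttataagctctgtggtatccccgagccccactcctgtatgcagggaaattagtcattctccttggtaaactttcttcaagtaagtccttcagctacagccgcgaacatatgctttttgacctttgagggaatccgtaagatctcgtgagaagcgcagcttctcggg
AKR1C1: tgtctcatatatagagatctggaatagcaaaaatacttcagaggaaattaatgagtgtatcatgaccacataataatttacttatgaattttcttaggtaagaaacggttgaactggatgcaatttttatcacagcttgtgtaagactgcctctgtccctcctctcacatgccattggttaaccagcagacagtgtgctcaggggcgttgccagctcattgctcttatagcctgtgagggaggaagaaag
KRTAP2-3: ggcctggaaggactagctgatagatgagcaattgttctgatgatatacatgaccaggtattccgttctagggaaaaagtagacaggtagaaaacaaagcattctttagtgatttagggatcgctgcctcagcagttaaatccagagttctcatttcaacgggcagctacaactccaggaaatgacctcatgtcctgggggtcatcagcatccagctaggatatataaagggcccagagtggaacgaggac
ZSWIM2: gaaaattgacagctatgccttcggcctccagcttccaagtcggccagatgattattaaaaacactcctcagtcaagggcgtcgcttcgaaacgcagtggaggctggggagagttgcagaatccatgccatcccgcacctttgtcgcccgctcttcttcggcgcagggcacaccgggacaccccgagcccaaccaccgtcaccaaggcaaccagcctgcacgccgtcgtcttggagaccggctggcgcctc
Peak height is given throughout in fragments covering the summit base, a whole number solved from the fold and p that the authors deposited for each peak. CPA4 had 39 fragments in untreated and 19 in etoposide cells, LMNTD1 33 and 19, PAMR1 27 and 19, and NIBAN2 21 and 18. FASTKD2 had 45 and 28, AKR1C1 25 and 30, KRTAP2-3 22 and 21, and ZSWIM2 20 and 21. Each of those shown with the motif had fewer fragments in etoposide cells, as did 73.4% of all shared pairs. Of those without it, FASTKD2 and KRTAP2-3 had fewer and AKR1C1 and ZSWIM2 had more. These few promoters do not stand for the full comparison. Over all 120 windows with a shared summit the order was the other way. There the median ratio of etoposide to untreated fragments, relative to all shared pairs, was 1.08 with the motif and 0.832 without.

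Most of the shared boundary peaks sat at gene starts. Strand was known from the RefSeq promoter table for 15812 of 19974 protein-coding genes, and by the nearest boundary 543 peaks lay at a start, 160 at an end and 144 at a gene without a listed strand. The start share was 77.2% of the 703 peaks with strand (74.0% to 80.2%). Among boundary peaks of the untreated list alone it was 87.9% (86.3% to 89.3%, 1868 peaks with strand), and among etoposide-only ones 70.1% (335 peaks, interval up to 74.8%). The shared peaks therefore lay between the library-specific ones, with an interval apart from that of the untreated-only peaks and touching that of the etoposide-only peaks. Within the shared set the start share did not follow peak strength: in 4 classes of nearly equal size, from the strongest to the weakest by untreated rank, it was 75.1%, 79.8%, 77.6% and 76.7%.

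Summits gathered on both sides of the start and were sparse just before it. Of the 543 at starts, 129 (23.8%) were 400 to 200 bp upstream, 53 (9.76%, 7.54% to 12.5%) were in the 200 bp before the start, and 149 (27.4%) were in the first 200 bp of the gene. Upstream and downstream positions were nearly balanced, with 292 summits (53.8%) before the start. Untreated-only peaks had the same 2 crests but more summits between them, 15.7% in the 200 bp before the start (14.0% to 17.5%), and lay closer in, with a median distance of 217.5 bp against 263 bp for shared peaks. At gene ends the 160 shared summits formed no such crests, with a median distance of 428.5 bp and 79 of them before the end.

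**Figure D1:**
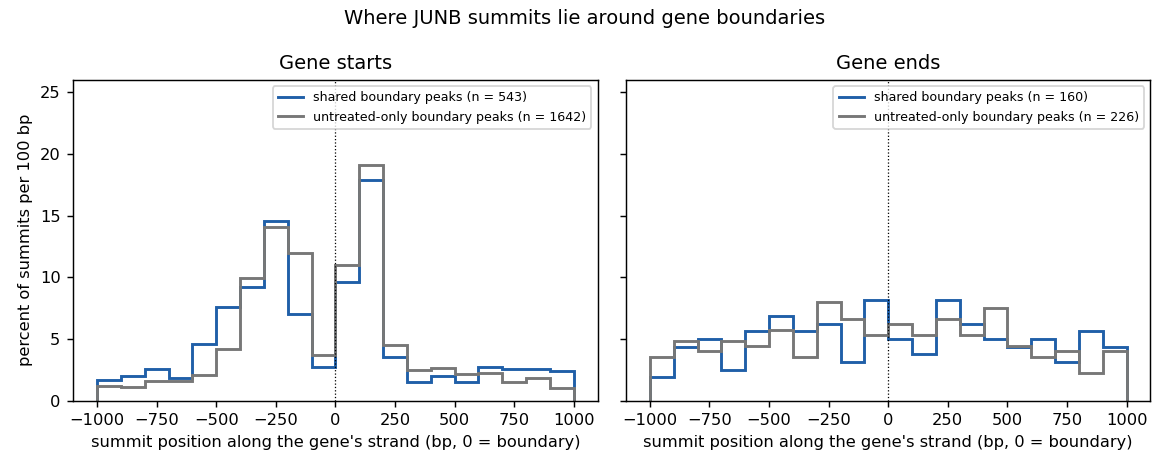
Position of JUNB summits along the gene's strand, in bp from the nearest gene start (left) or gene end (right), as the percent of summits per 100 bp. Shared boundary peaks (blue, 543 at starts and 160 at ends) crest on either side of the start with a dip in the 200 bp before it. Untreated-only boundary peaks (grey) also crest on either side, and their dip is mainly in the last 100 bp before the start. Neither set has a crest at gene ends.

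Pairs were formed by overlap, which keeps their summits near each other. The summits were a median of 41 bp apart (quartiles 18 and 93.5 bp), 649 of 847 (76.6%) were within 100 bp, against 76.1% for the 15763 shared peaks away from boundaries, and 830 of the etoposide summits (98.0%) also met the 1 kb limit. Untreated peaks were 355 bp wide at the median and etoposide peaks 236 bp, where the other shared peaks had 358 and 301 bp. Chromosome 19, which is dense in genes, had the highest proportion of its shared peaks at boundaries, 56 of 301 (18.6%), and chromosome 18 the lowest, 10 of 427 (2.34%). Counted per gene the order was different, from 0.943 peaks per 100 protein-coding genes on X to 5.91 on chromosome 3.

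The tallest places were a mixed group of genes. CAPN2, the large subunit of a calcium-activated protease, headed them with 85 fragments in untreated and 60 in etoposide cells, 335 bp upstream of its start on chromosome 1 (223700827 to 223701410), at rank 30 and 63 of the lists. HRH1, the histamine H1 receptor, had 82 and 44 fragments on chromosome 3, 117 bp inside the gene. MARCHF4, a ubiquitin ligase of the secretory pathway, had 75 and 51 on a peak of 1239 bp, one of the 5 widest, with a local background of 7.35 fragments in untreated cells. These were all gene starts, and in each the etoposide pileup was the lower one.

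Several of the strongest lay instead at gene ends. DPF3, a subunit of the BAF chromatin remodelling complex, had 68 and 52 fragments at a summit 384 bp beyond its end on chromosome 14 (72608248 to 72609069). CCL20, a chemokine of the senescent secretome that attracts lymphocytes and dendritic cells, had 61 and 37 at a summit 617 bp beyond its end on chromosome 2 (227818022 to 227818807). FAM171A1, a membrane protein gene, had 57 and 46 at 79 bp before its end, SMIM21 52 and 42, and GPR157, an orphan receptor, 43 and 27. The remaining 4 of the 12 strongest were upstream of the starts of DYNLT4 and BTBD19 (55 and 42), at YJU2B (49 and 26), at COQ8B, which serves coenzyme Q synthesis (49 and 36), and at ANXA13 (42 and 31). All 12 had fewer fragments in the etoposide library, as did 73.4% of all shared pairs, and ends supplied 5 of them. Divided by the median ratio of all shared pairs, FAM171A1 and SMIM21 were at 1.04 and the other 10 below 1.

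Heights across the whole set ran from 6 to 85 fragments in the untreated library (median 17, quartiles 13 and 24) and from 5 to 60 in the etoposide library (median 12, quartiles 9 and 16). The other shared peaks had medians of 19 and 15. Of the 847 pairs 711 (83.9%) had fewer fragments in the etoposide library, 43 had equal numbers and 93 had more, where 73.4% of all shared pairs had fewer and 20.8% more. The ratio of etoposide to untreated fragments over all shared pairs had a median of 0.778, and ratios are divided by that value, so that 1 is the typical shared pair. Depth and a general difference in signal between the libraries cannot be told apart.

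Scaled in this way the shared boundary peaks had a median ratio of 0.857 (quartiles 0.692 and 1.14), against 1.01 for the other shared peaks (0.804 and 1.29). The median was 0.857 at gene starts and 0.939 at gene ends. Past 1.5-fold, 172 boundary pairs were lower in etoposide (20.3%, 17.7% to 23.1%), where 11.2% of all shared pairs were, and 53 were higher (6.26%, 4.82% to 8.09%), where 13.0% of all shared pairs were. Each pair had to be called in both lists, so the ratio belongs to the contrast by which the peaks were chosen, and it is given as a description of these 2 libraries. A single pair is poorly determined: 23 boundary pairs (2.72%) had a 95% counting interval wholly below 1 and 5 (0.590%) one wholly above, against 2.22% and 2.38% of all shared pairs. At a 2-fold limit 29 boundary pairs were lower and 9 higher, where 1.96% and 3.20% of all shared pairs were.

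**Figure D2:**
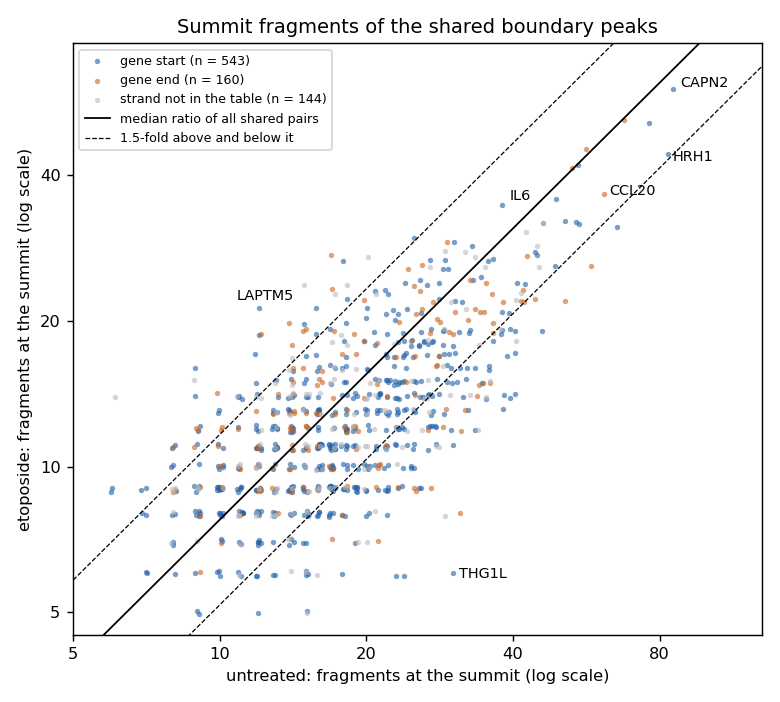
Fragments at the summit in the untreated (x) and the etoposide library (y) for the 847 shared boundary peaks, both axes logarithmic and each point jittered slightly. The solid line is the median ratio of all shared pairs, 0.778, and the dashed lines are 1.5-fold either side; 172 pairs lie on or below the lower and 53 on or above the upper one.

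Since tall and short peaks differ in ratio, pairs were also compared at equal mean height. Where the 2 libraries averaged over 12 to 16 fragments, the median scaled ratio was 0.832 at gene starts (165 pairs), 1.03 at ends (49) and 1.04 away from boundaries (4050). At over 16 to 20 fragments it was 0.796, 0.934 and 0.980, and above 26 it was 0.771 (39 pairs), 0.787 (22) and 0.897 (2674). Starts had the lowest of the 3 medians in each of the 5 height classes, while ends were at the level of the other shared peaks in the lowest class and below it in the tallest. The etoposide to untreated ratio of the peak caller's local background had a median of 0.602 at starts, 0.641 at ends and 0.691 away from boundaries. No control library is named, so this background may come from the same library and hold the peak's own fragments. It may then not be independent of the summit count. The part of this background in the lower summit ratio was not tested.

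**Figure D3:**
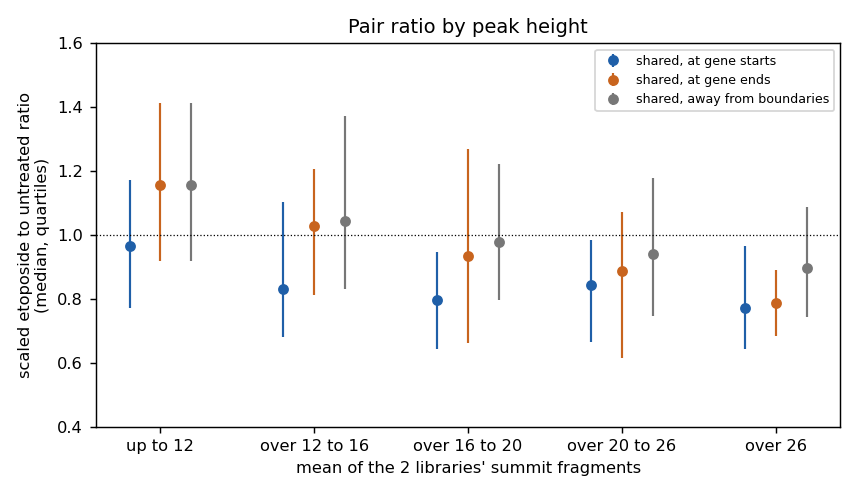
Scaled etoposide to untreated ratio of summit fragments (1 is the median of all shared pairs) by mean height of the pair, as medians with quartiles. Shared peaks at gene starts (blue) have the lowest median in each of the 5 height classes, from 0.964 in the lowest to 0.771 in the tallest; peaks at ends are orange and those away from boundaries grey.

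Among pairs with at least 30 fragments in all, the 8 lowest scaled ratios ran from 0.257 to 0.445. THG1L, which adds a guanine to histidine transfer RNA, had 30 untreated and 6 etoposide fragments (scaled ratio 0.257, exact 95% interval 0.0875 to 0.628). TREX1, a DNA exonuclease that clears cytosolic DNA, had 24 and 6 (0.321, 0.107 to 0.807). GNAO1, a G protein alpha subunit, had 31 and 8 at its end (0.332, 0.132 to 0.738). In THG1L and TREX1 the 2 summits were 347 and 287 bp apart, and in NFIL3, a basic leucine zipper repressor (27 and 9), 321 bp, so these pairs compare different points of overlapping peaks.

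The other low pairs had summits no more than 56 bp apart. FBRS had 29 and 8 fragments, ZNF674 38 and 13, and C9orf72 26 and 9. PSMA5, a subunit of the proteasome core, had 26 and 9 at an identical summit position, 166 bp inside the gene (0.445, 0.183 to 0.980). Of the 8 genes, 5 held the peak at a start.

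At the other extreme, the 8 highest ratios ran from 1.74 to 2.25, on untreated peaks of 12 to 18 fragments. LAPTM5, a lysosomal membrane protein, had 12 untreated and 21 etoposide fragments (2.25, 1.06 to 5.02). ETS1, an ETS family transcription factor that cooperates with AP-1, had 15 and 24 (2.06, 1.04 to 4.22) at a summit 121 bp from its boundary on chromosome 11. CCDC112 had 17 and 27 (2.04, 1.07 to 3.99), and MYOZ2, a Z-disc protein of striated muscle, had 18 and 27 (1.93, 1.02 to 3.72) at a summit 49 bp inside the gene. The intervals of these 4 lay above 1. Those of CENPE, the kinetochore motor (12 and 19), TEKT3 (12 and 19), KRT28 (14 and 20) and TBC1D17 (17 and 23) took in 1. The TBC1D17 summits were 590 bp apart, and the same etoposide peak was also the counterpart of a neighbouring untreated peak with 21 fragments at a summit 21 bp away.

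Shared boundary peaks touched 949 of the 19974 protein-coding genes, 4.75%, and against that background 16 lists of genes were counted, with 24 of their 495 genes having such a peak. Of 64 genes of the senescence-associated secretome 4 did (6.25%). Besides CCL20, the cytokine gene IL6 had 38 untreated and 35 etoposide fragments at 478 bp upstream, and CXCL2, a neutrophil chemokine, had 25 and 10 at 347 bp upstream. The scaled ratio of IL6 was above 1 (1.18, 0.726 to 1.93) and those of CCL20 and CXCL2 were below it (0.780 and 0.514), and the interval of each of these took in 1.

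The p53 targets had 5 of 29 genes (17.2%), the highest share of the 16 lists. BBC3, the apoptosis inducer PUMA, had 30 and 22 fragments 33 bp upstream of its start on chromosome 19 (47232768 to 47233039). XPC, which recognises DNA damage for nucleotide excision repair, had neighbouring peaks at its end, with 32 and 20 fragments and with 29 and 12. PLK3, a stress-activated kinase, had 25 and 10 at its start, and RRM2B, a ribonucleotide reductase subunit, had 15 and 10. TP53I3, an oxidoreductase, had 14 and 9 at a summit 810 bp beyond its end. This summit was nearer to the starts of FAM228B and SF3B6, which are not in the list, at 210 and 297 bp upstream of them. All 6 peaks had scaled ratios below 1, from 0.514 to 0.943, each with an interval that took in 1. RRM2B and XPC also had an untreated-only peak at a boundary.

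In other stress and signalling lists 1 or 2 genes had a shared boundary peak, shares that lay around the 4.75% of all genes. NRF2 pathway genes with a peak were SLC7A11, the cystine importer (27 and 13), and OSGIN1 (16 and 11), 2 of 20. In the NF-kappa-B list TNFAIP3, the feedback inhibitor A20, had 17 and 8, 1 of 19. The MAP kinase feedback list had DUSP14 (25 and 18), 1 of 18, and the immediate early list had BHLHE40, a circadian and stress repressor (38 and 19), 1 of 26. DNA break repair genes had RNF168, a ubiquitin ligase at breaks (23 and 20), and TDP2 (8 and 10), 2 of 25. TDP2 removes topoisomerase II from DNA ends, the lesion that etoposide leaves, and its peak, between its start and that of ACOT13, was at rank 31378 of the untreated list, near its weak end, and at 14948 of the etoposide list, close to the median rank of 13339 of the shared boundary peaks.

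Matrix and contractile genes showed a similar scatter. Collagens and matrix genes had 3 of 37: COL6A1 (20 and 7), COL7A1 (19 and 11) and TNC, tenascin C, at its end (22 and 14). TGFBR2, the type 2 TGF-beta receptor, had 24 and 17, 1 of 28 in its pathway, ANKRD1, a YAP target, 11 and 14, 1 of 30, and VIM, the intermediate filament vimentin, 26 and 21. Actin and adhesion genes had none of 41, although 6 of them had an untreated-only and 1 an etoposide-only boundary peak. The 18 AP-1 family genes also had none, while ATF2, ATF7, JUND and MAFF had untreated-only boundary peaks. The share of all genes with such library-specific peaks was not counted, so the numbers of genes with them have no background.

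Of 79 cytosolic ribosomal protein genes 1, RPL6, had a shared boundary peak (8 and 9 fragments), against 14 with an untreated-only peak and 2 with an etoposide-only peak. Of 40 replication and mitosis genes 1, CENPE, had one, against 9 with an untreated-only peak. MCM4 had an etoposide-only one. Over all genes 2202 of the 3049 untreated boundary peaks were untreated-only. That is a share of peaks and not of genes, so it gives no background for these list counts.

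**Figure D4:**
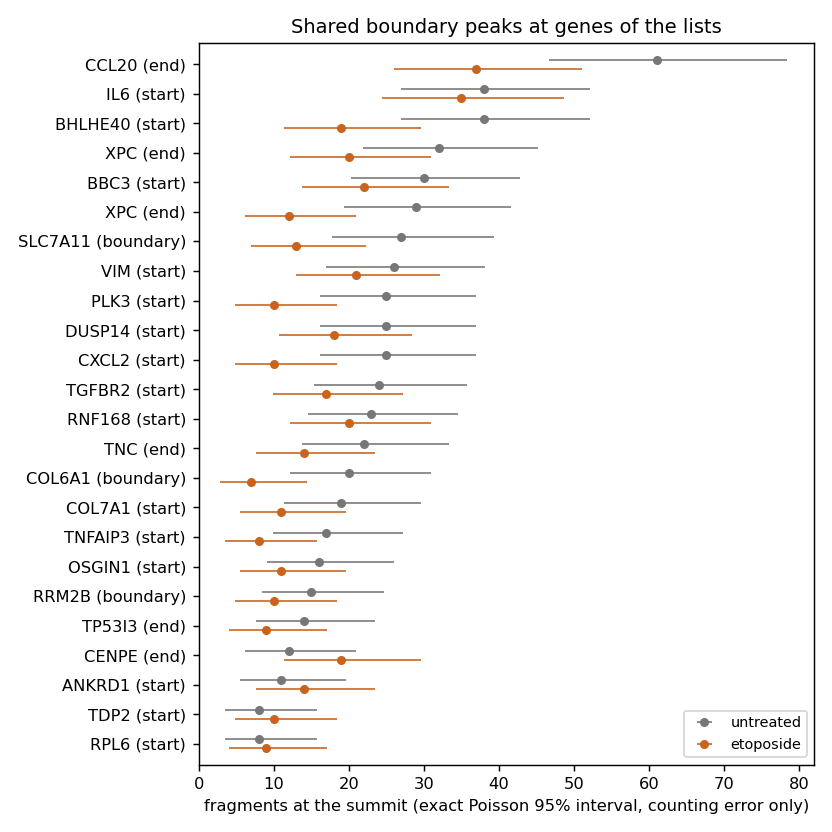
Fragments at the summit in untreated (grey) and etoposide cells (orange) for 24 shared boundary peaks at genes of the lists, with exact Poisson 95% intervals that cover counting error only. CCL20 is the tallest with 61 and 37 fragments; 4 peaks, at CENPE, ANKRD1, TDP2 and RPL6, have more fragments in etoposide.

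A peak could belong to more than 1 gene. Of the 847 peaks, 119 lay within 1 kb of boundaries of 2 or more protein-coding genes, and 76 of these were at 2 starts. Among the tallest of them, MDH1B and FASTKD2 are transcribed away from each other from either side of a shared summit with 45 and 28 fragments, 113 and 165 bp upstream of their starts. RIN1, a RAS effector, and BRMS1 had a summit with 45 and 27 fragments, and TNRC6B and FAM83F one with 34 and 25. The facing ends of ILKAP and ERFE had 42 and 23, and the ends of RABEPK and HSPA5, the latter the endoplasmic reticulum chaperone BiP, had 29 fragments in either library.

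Conversely 21 genes had 2 or more shared boundary peaks, and in 8 cases a single etoposide peak was the counterpart of both untreated ones. STX7, a syntaxin of endosomes, had 1 at its start (14 and 10 fragments) and 2 untreated peaks beyond its end, of 42 and 38 fragments, over the same etoposide peak of 22, whose summit was 2 bp from the first and 354 bp from the second. MTRF1, a mitochondrial release factor, had 1 inside its start (20 and 13) and 2 untreated peaks at its end, of 24 and 14 fragments, over the same etoposide peak of 15. SLC2A12, a glucose transporter, had untreated peaks on either side of its start, of 16 fragments 260 bp upstream and 23 fragments 125 bp downstream, and 1 etoposide peak of 21 fragments that overlapped both, with its summit 58 bp from the upstream one. PNP, a nucleoside phosphorylase, had untreated peaks of 15 and 12 fragments inside the gene over the same etoposide peak of 5.

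Motifs were counted in the RefSeq promoter windows, 250 bases before to 50 after each start, of which 120 held the untreated summit of a shared boundary peak (110 peaks). TGANTCA, on either strand, was present in 22 of the 120 (18.3%, 12.4% to 26.2%), in 910 of all 15812 windows (5.76%), in 32 of 542 windows with an untreated-only summit (5.90%, 4.21% to 8.22%) and in 11 of 64 with an etoposide-only summit (17.2%, 9.88% to 28.2%). Windows are not replicates, and neighbouring genes can share one stretch of DNA. The cyclic AMP element TGACGTCA was in 2 of 120 windows at shared summits (1.67%, 0.458% to 5.87%) and in 2.59% of all windows. It was in 7.01% at untreated-only (5.15% to 9.48%) and 6.25% at etoposide-only summits (2.46% to 15.0%). The shared interval took in the share of all windows and overlapped both other intervals, so no order is settled.

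Base composition moved with this result. Windows with a shared summit and the motif had a median GC content of 48.5%, those without it 62.2%, and all windows 62.7%. Below 55% GC the motif was in 14 of 40 windows with a shared summit (35.0%, 22.1% to 50.5%) and in 10.9% of all windows. Between 55% and 65% GC it was in 2 of 38 (5.26%, 1.46% to 17.3%) against 5.72%, and at 65% or more in 6 of 42 (14.3%, 6.72% to 27.8%) against 2.56%. The higher share was thus seen in the outer classes of GC content and not in the middle one. Untreated-only summits had 18.2%, 3.85% and 3.18% in the same classes, and etoposide-only summits 37.5% (6 of 16), 14.8% (4 of 27) and 4.76% (1 of 21).

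Copies were sought only inside the promoter window, and some summits lay near its edge. A copy outside the window, nearer to the summit or inside the peak, would be missed. Within the window the motif was rarely at the summit itself. In the 22 windows with it the nearest copy was a median of 115 bp from the untreated summit, from 12 bp at RTN3 to 236 bp at LYPD1. The motif was within 50 bp in 4 windows. It lay inside the listed untreated peak in 12 windows, inside the etoposide peak in 6 and inside both in 5: PAMR1, MYOZ2, LRRC8B, LBX2 and PMCH. As a share of the 120 windows, the 12 have an interval of 5.81% to 16.7%. The share was 2.58% of untreated-only windows (1.54% to 4.29%) and 3.1% of etoposide-only windows (2 of 64, 0.861% to 10.7%). The etoposide-only interval overlapped the shared one, and peak widths were not matched between the sets. The scaled ratio had a median of 1.08 in the 22 windows with the motif and 0.832 in the other windows, with a median untreated height of 17 fragments in both.

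**Figure D5:**
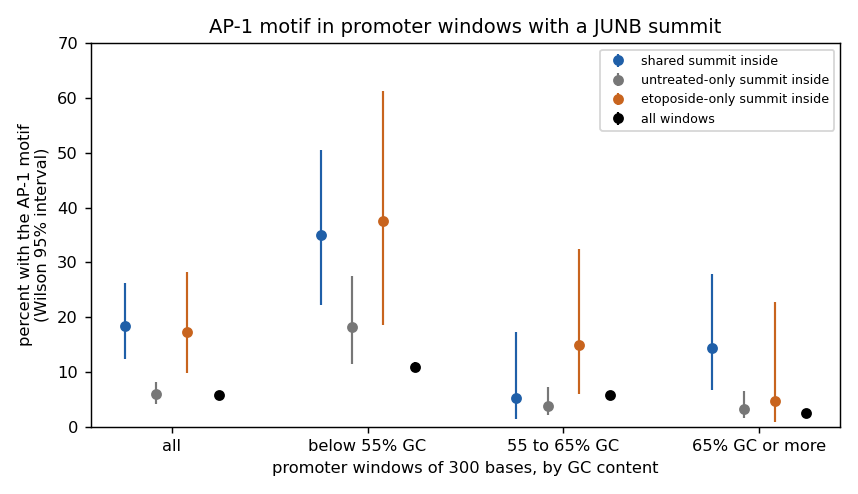
Percent of 300-base promoter windows with the AP-1 motif, with Wilson 95% intervals, for windows that hold a shared, an untreated-only or an etoposide-only summit and for all windows, in total and by GC content. Windows with a shared summit stand at 18.3% in total against 5.76% of all windows, and at 5.26% against 5.72% in the middle class of GC content.

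Of the other motifs, the GC box GGGCGG was in 61.7% of windows with a shared summit and 58.5% of all windows, CCAAT in 44.2% and 36.3%, the TEAD motif GGAATG in 17.5% and 11.7%, the ETS motif CCGGAAG in 16.7% and 14.2%, and TATAAA in 10.8% and 9.64%. The interval at shared summits took in the share of all windows for each of these but GGAATG, whose lower bound was also 11.7%. At untreated-only summits TATAAA was in 3.14% (1.97% to 4.97%) and CCGGAAG in 21.8% (18.5% to 25.4%).

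The 1 kb limit had no natural gap beside it. Just inside was a peak 999 bp from a boundary of ZNF827 (23 and 12 fragments), and just outside was a shared peak 1003 bp from one of ERLIN2 (16 and 10). The least overlap among the pairs was 8 bp.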

How the data were processed

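CUT&RUN with an antibody to JUNB gave 1 untreated and 1 etoposide library of IMR-90, and Bowtie2, MACS2 and the builds hg38 and mm10 are named, without roles, in the submitters' processing notes; coordinates were read as hg38. Each library has its own deposited peak list of 33491 (untreated) and 26590 (etoposide) peaks. Per the narrowPeak layout, the authors' values are a fold ratio of summit signal over local background, -log10 p and -log10 q, and a score, the whole part of 10 times -log10 q within 1 unit in 100% of peaks. Read depth, caller settings and any control library are not given in the sources used here.

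Summit fragments k and local background b were solved from the deposited ratio, (k + 1)/(b + 1), and the -log10 p of the authors, a Poisson upper tail. A whole k met the deposited p within 0.001 in 100% of peaks of both lists, and on data simulated from the untreated list 99.89% of 1890 pileups were returned exactly. Ratios were divided by the median of all shared pairs, 0.778; the lowest backgrounds of the lists give 0.782. Gene positions, strand and promoter sequences are those of RefSeq for GRCh38.p14, counted from 1. Shares have Wilson and single ratios exact (Clopper-Pearson) 95% intervals. The members and gene lists were chosen with earlier results of these data known. Named peaks were the 12 with the lowest sum of ranks, the 8 highest and 8 lowest ratios with at least 30 fragments in all, genes of the lists, and the strongest of several further classes; a few peaks these rules name are not reported here. Sequences were limited, after the data were seen, to windows that end at the outer gene boundary. Python 3.11.15, numpy 2.4.6, scipy 1.17.1, pandas 2.3.3 and matplotlib 3.10.9 were used.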

Additional observations from a re-analysis of the deposited data

How the results depend on the processing

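No paired analysis was possible because there was 1 library per condition. The GC classes of windows and the settings for gene lists and single ratios were added with the data in view (chosen after seeing the data). Of 26 alternatives for the 7 summary results 18 kept counts within 1.5 times, and shares and the median ratio within their 95% intervals. Overlap of at least 50% of both peaks left 562 peaks, and a 3 kb window gave 1541, with 63 genes of the lists. The start share was 81.5% within 0.5 kb. At 2-fold, 9 pairs were higher and 29 lower. The octamer TGACGTCA was in 1.67% of windows, and TGANTCA in 5.26% of windows of 55% to 65% GC. Of the 28 peaks named for strength or ratio, 27 had 1 counterpart, so other pairing could not alter them, and the other depth scale moves every ratio by the same factor. Heights of 5 to 20 fragments leave most single ratios uncertain.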

Other observations

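Genes for non-coding RNA also lay at these places. A boundary of a long non-coding RNA gene was within 1 kb of 139 of the 847 shared boundary summits (16.4%, 14.1% to 19.1%), of 19.7% of untreated-only boundary summits (18.1% to 21.4%), of 11.4% of etoposide-only boundary summits (8.67% to 14.9%) and of 4.19% of shared summits away from boundaries. MicroRNA genes were near 8 shared boundary peaks. The one at NSRP1, near MIR423 and MIR3184, had 10 untreated and 13 etoposide fragments, the one at FEN1 and TMEM258, near MIR611, had 9 and 14, and the one at UNK, near MIR4738, had 23 and 18.

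Transfer RNA genes were near 4 of them. Upstream of ILF2 on chromosome 1, a peak with 24 and 10 fragments covered TRX-CAT1-1 and the next one had 13 and 6. The peak at ALOXE3 on chromosome 17 had 24 and 19 at a summit 766 bp from TRK-TTT3-5. The one at METTL26 on chromosome 16 had 8 in either library at a summit 135 bp from TRG-CCC2-2. Transfer RNA genes were near 0.472% of shared boundary peaks (0.184% to 1.21%) and 11 of 2202 untreated-only boundary peaks (0.279% to 0.892%). These counts were added after the data had been seen.

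Of the 5 widest untreated peaks, MARCHF4 was also among the 12 strongest, and the other 4 were not. The untreated peak inside the start of IL7R, the interleukin 7 receptor, was 1427 bp wide with 28 fragments, and its etoposide counterpart was 534 bp wide with 22. At MGARP the widths were 1262 and 248 bp with 20 and 22 fragments, at STK40 1204 and 542 bp with 55 and 32, and at PRDM10 1173 and 502 bp with 24 and 17 at summits 710 bp apart, the largest distance among the 847 pairs.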
